A study of Homo sapiens with 6 samples.

Results

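The 51 genes described here encode subunits of ATP-dependent chromatin remodeling complexes. Among them, ACTR6 and SMARCAD1 were listed because their counts were lower in shNXN than in shControl Hep-3B cells, so their values in this comparison are a description and carry no test. The other 49, called partners below, were listed as subunits or relatives of the same complexes, 7 of the 51 genes belonging to SRCAP and EP400, 8 to INO80, 3 to both of these, 14 to SWI/SNF, 7 to ISWI and its BAZ companions, 8 to the CHD family and 4 to other SNF2-type ATPases. All 51 were found among the 23406 features of the deposited tables, and all 51 were among the 14071 features with enough counts to be tested. The question was whether the lower levels of ACTR6 and SMARCAD1 were shared by their partners.

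Hep-3B is a human hepatocellular carcinoma line, and NXN encodes nucleoredoxin, a redox-active protein. The cells received lentivirus carrying shControl, a control hairpin, or shNXN, a hairpin that targets NXN, were selected with puromycin for a week and were collected on days 7, 9 and 11, which gave 1 library for each group and day and 3 libraries for each group. The labels call the shControl cells wild type and the shNXN cells an NXN knockdown, name neither shRNA sequence and do not say that the libraries of a group came from separate cultures, so the spread between them includes the days and may be partly technical. The deposited estimated counts summed to between 15349382 and 16332589 per library. NXN itself measured 181, 138 and 143 CPM (counts relative to the library total) in shControl cells and 42.7, 47.5 and 39.5 CPM in shNXN cells on days 7, 9 and 11. The groups did not overlap, and the log2 fold change of NXN was -1.83 (SE, the standard error of the log2 fold change, 0.163; adjusted p = 0.0378, edgeR's quasi-likelihood test). All 13 hepatocyte and hepatoma markers were detected, with a summed level of 12470 to 18490 FPKM (fragments relative to transcript length and library total) in shControl and 7191 to 13260 FPKM in shNXN cells, ALB being the highest. Endothelial markers summed to at most 0.020 FPKM with VWF and KDR at 0, fibroblast markers to between 2.30 and 4.39 FPKM, and leukocyte markers, mainly CD68, to between 46.9 and 53.1 FPKM in shControl and 59.9 and 76.8 FPKM in shNXN cells with CD3E at 0. The part of these marker differences in the results below was not tested.

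Chromatin remodelers use ATP to slide, evict or exchange the histones around which DNA is wrapped, and so help to set which promoters and enhancers are reachable. SRCAP and EP400 build a variant histone into nucleosomes near transcription start sites, INO80 slides and edits such nucleosomes, SWI/SNF opens regulatory DNA, ISWI spaces nucleosomes evenly, and CHD proteins both open and close chromatin. In hepatocellular carcinoma the SWI/SNF subunits ARID1A and ARID2 are known for recurrent inactivating mutations.

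Promoter sequences are shown for the pair on which the question turns, ACTR6 and its ATPase SRCAP, and for the lower ATPase genes SMARCAD1 and SMARCA5. They run from 250 bases before to 50 bases after the most upstream start that RefSeq lists on GRCh38.p14, at chr12:100200565-100200864 for ACTR6, chr16:30698921-30699220 for SRCAP, chr4:94207358-94207657 for SMARCAD1 and chr4:143513452-143513751 for SMARCA5, all on the plus strand and written 5′ to 3′. Capitals mark every match, on either strand, to the 5 motifs searched, the ETS core CCGGAA, the GC box GGGCGG, the nuclear factor Y motif CCAAT, the E-box CAGGTG and the TATAAA element, none of which overlapped another in these windows.
ACTR6: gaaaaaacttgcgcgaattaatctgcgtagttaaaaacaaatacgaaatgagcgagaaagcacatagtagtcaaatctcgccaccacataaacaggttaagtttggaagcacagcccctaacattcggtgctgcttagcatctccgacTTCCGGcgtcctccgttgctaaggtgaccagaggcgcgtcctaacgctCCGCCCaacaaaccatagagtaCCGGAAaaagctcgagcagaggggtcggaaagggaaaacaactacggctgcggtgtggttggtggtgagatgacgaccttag
SRCAP: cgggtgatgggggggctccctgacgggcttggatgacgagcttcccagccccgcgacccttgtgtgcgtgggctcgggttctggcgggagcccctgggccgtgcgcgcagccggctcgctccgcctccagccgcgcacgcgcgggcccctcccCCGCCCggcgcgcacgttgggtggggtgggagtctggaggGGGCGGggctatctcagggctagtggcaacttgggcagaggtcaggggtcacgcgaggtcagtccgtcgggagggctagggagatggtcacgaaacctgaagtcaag
SMARCAD1: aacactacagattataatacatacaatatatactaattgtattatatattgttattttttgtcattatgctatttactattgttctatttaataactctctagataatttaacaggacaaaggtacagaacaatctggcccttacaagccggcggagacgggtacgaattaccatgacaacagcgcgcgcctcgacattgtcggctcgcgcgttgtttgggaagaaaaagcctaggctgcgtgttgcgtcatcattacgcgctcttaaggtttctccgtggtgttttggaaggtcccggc
SMARCA5: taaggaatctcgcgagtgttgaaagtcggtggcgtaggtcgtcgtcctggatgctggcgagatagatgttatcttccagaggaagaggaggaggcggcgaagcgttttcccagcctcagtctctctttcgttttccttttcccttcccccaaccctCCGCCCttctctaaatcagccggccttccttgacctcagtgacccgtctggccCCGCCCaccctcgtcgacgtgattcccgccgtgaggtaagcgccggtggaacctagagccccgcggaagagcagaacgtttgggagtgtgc
The ACTR6 promoter held 2 ETS cores and 1 GC box, SRCAP and SMARCA5 held 2 GC boxes each, and SMARCAD1 held none of the 5. Their GC content ran from 41.3% in SMARCAD1 to 72.0% in SRCAP.

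Promoters were matched for 41 of the 51 genes, and VPS72, ACTL6A, SMARCC1, SMARCC2, ARID2, BAZ1A, BPTF, CHD6, CHD7 and ATRX were not matched. The ETS core was present in 14 of the 41 (34.1%) against 17.2% of 35116 promoters of the same length, and the GC box in 29 (70.7%) against 45%. For the 41 genes only the most upstream start was used, whereas the 35116 promoters include every listed start of a gene. The shares are therefore of unlike sets. The CCAAT motif was present in 13 (31.7% against 34.6%), the E-box in 4 (9.76% against 20.6%) and TATAAA in 2 (4.88% against 11.5%). The median promoter GC content was 64.7% over the 41 genes and 58.7% over all promoters. Across the 41 genes the Spearman correlation of the log2 fold change in shNXN cells with promoter GC content was 0.10, which describes genes of the same 6 libraries and is no replicate test.

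ACTR6, an actin-related protein that anchors the histone-exchange module of SRCAP, had in counts the lowest shNXN level relative to shControl of the 51 genes. It gave 20.4, 12.9 and 16.6 CPM in the shControl libraries and 1.46, 1.47 and 2.51 CPM in the shNXN libraries of days 7, 9 and 11, from 210 to 311 counts against 24 to 39. Every shNXN library therefore lay below every shControl library, and the log2 fold change was -3.19 (SE 0.330). In bulk RNA, fewer cells that express a gene and less RNA per cell cannot be told apart. ACTR6 lies at chr12:100199122-100241865 on the plus strand (GRCh38, GENCODE 29), where exons of DEPDC4 overlap it on the opposite strand, and a pseudogene, ACTR6P1, carries its name. The strand setting of the counting is not given in the sources used here, so the ACTR6 counts are uncertain to that extent. An opposite-strand exon overlapped 28 of the 51 genes, and 7 had a pseudogene named after them. The same limit applies to the counts of those genes.

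In FPKM the difference for ACTR6 was smaller. The values were 16.6, 11.8 and 13.9 FPKM in shControl and 8.79, 1.85 and 9.13 FPKM in shNXN cells, a difference of -1.19 on the log2(FPKM + 1) scale. The transcript length implied by a count and its FPKM in the same library was 1090 to 1221 nucleotides in shControl cells but 171, 807 and 266 nucleotides in the shNXN libraries, so the deposited tables did not hold 1 length for this gene, and the size of its difference depends on which table is read.

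SMARCAD1, an SNF2-type ATPase that helps restore silent chromatin behind the replication fork, was the second of the listed pair. It gave 77.7, 64.5 and 84.5 CPM in shControl and 8.52, 7.11 and 18.3 CPM in shNXN cells. The groups did not overlap, and the highest shNXN library was that of day 11. The log2 fold change was -2.74 (SE 0.375) and the log2(FPKM + 1) difference was -2.19, so here both tables gave a large difference in the same direction. SMARCAD1 lies at chr4:94207611-94291292 on the plus strand, and the annotation places no exon of another gene over its exons.

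**Figure D1:**
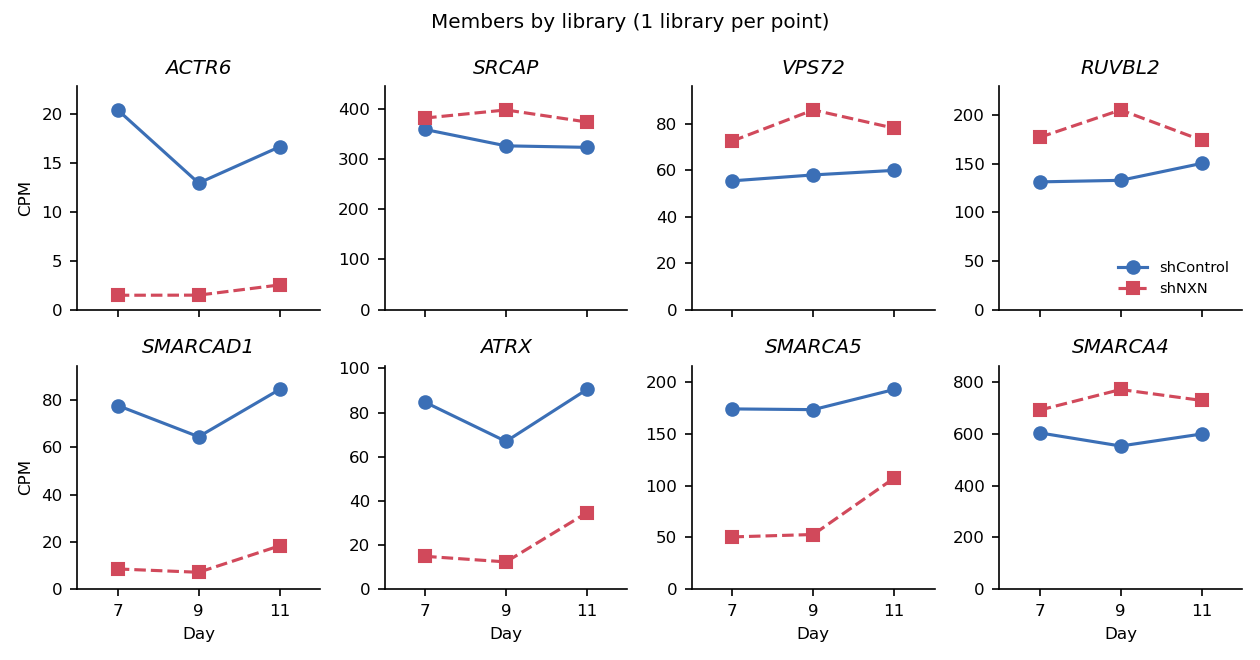
CPM (y axis, from 0) against the labelled day (x axis) for 8 genes, with 1 library per point, shControl as circles and shNXN as squares. ACTR6, SMARCAD1, ATRX and SMARCA5 lay lower in shNXN cells on each day, with the day 11 shNXN point the highest of the 3, while SRCAP, VPS72, RUVBL2 and SMARCA4 lay slightly higher.

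Among the 49 partners, 1 had a Benjamini-Hochberg adjusted p under 0.05 over all tested features, and it was lower in shNXN cells. Over all 14071 features 3.39% were called, 3.21% lower and 0.185% higher. The single call was ATRX, an SNF2-type ATPase that deposits variant histones at telomeres and heterochromatin. ATRX gave 84.7, 66.9 and 90.5 CPM in shControl and 14.8, 12.3 and 34.6 CPM in shNXN cells, without overlap. It fell by 1.97 on the log2 scale (SE 0.398, adjusted p = 0.0496, edgeR's quasi-likelihood test), close to the threshold, and when 1 library was left out the call held only without the day 11 shNXN library (edgeR's adjusted p between 0.000959 and 0.225). Without the shControl library of day 7 or day 11, or the shNXN library of day 7 or day 9, edgeR called 0 of all features, NXN included, while 2668 to 4229 had an unadjusted p under 0.05. Of the 49 partners, 28 had a log2 fold change above 0 and 21 below, with a median of 0.19 against 0.03 over all features.

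The labelled day pairs the libraries, and with the day as a block more partners passed. In that fit 15 of the 49 were called (30.6%), against 23.3% of all features. The 10 that were lower were ARID2, ATRX, BAZ1A, BAZ2B, BPTF, CHD1, CHD9, HELLS, PBRM1 and SMARCA5 (background 17.0%), and the 5 that were higher were BAZ2A, EP400, SMARCC2, SMARCD2 and VPS72 (background 6.28%). Without the block, the CPM of the groups did not overlap in 9 partners that were lower, against 21.5% of all features, and in 20 that were higher, against 19.0%. The partners lay on both sides of 0 and did not follow ACTR6 and SMARCAD1 as a whole.

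**Figure D2:**
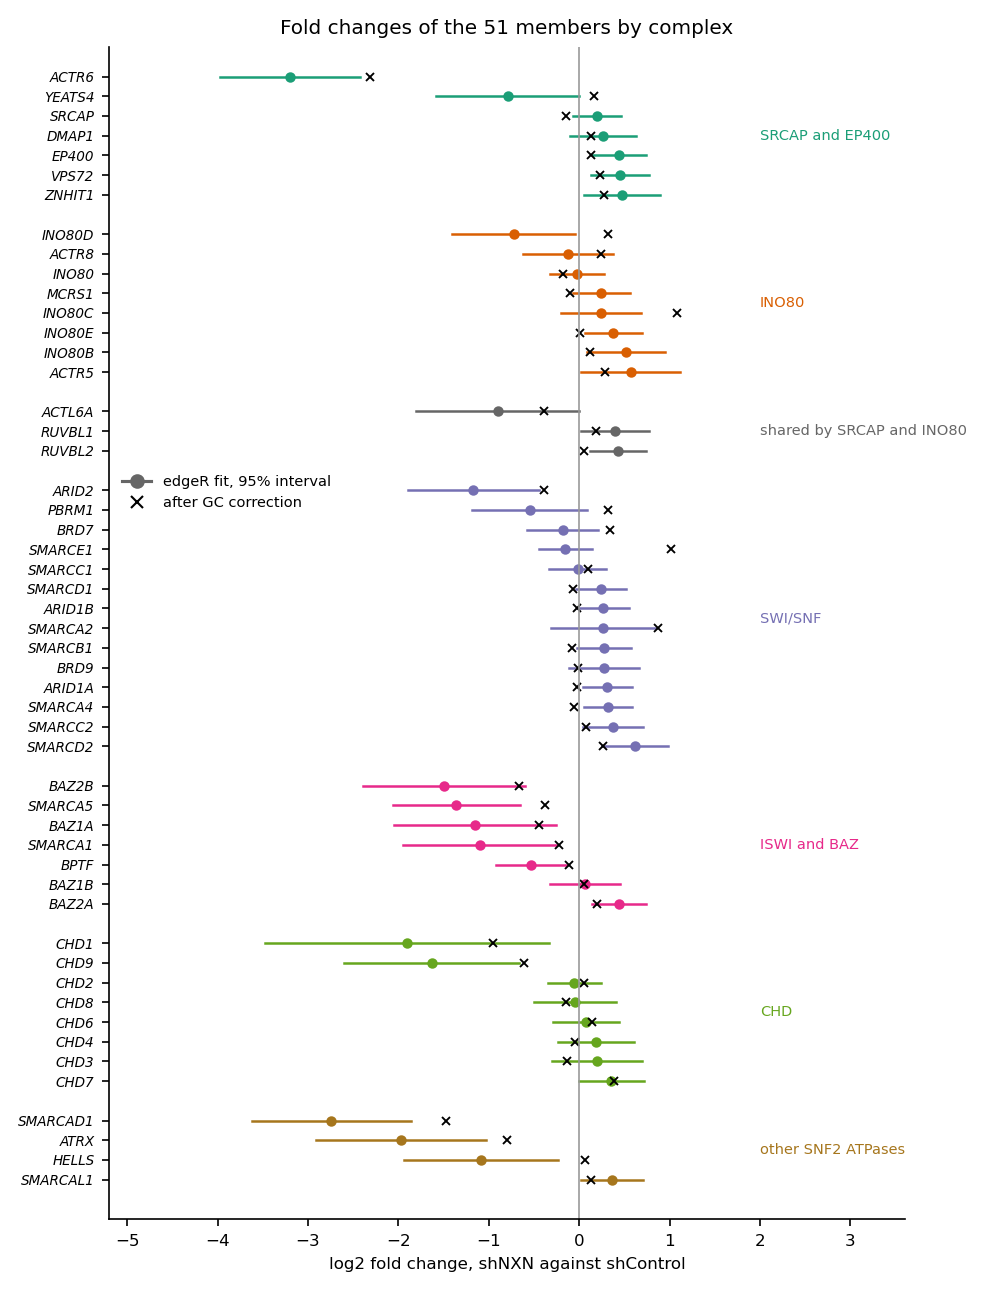
Log2 fold change of shNXN against shControl (x axis) for each of the 51 genes (y axis, grouped by complex), with dots and bars for the edgeR estimate and its 95% interval and crosses for the estimate after GC correction. The dots of 5 of the 7 ISWI and BAZ genes and of CHD1, CHD9, ATRX and SMARCAD1 lay to the left of 0, those of the SRCAP partners other than YEATS4 to the right, and most crosses moved toward 0.

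Of the SRCAP and EP400 partners, 5 of 6 had higher levels in shNXN cells, none passed edgeR's test at an adjusted p under 0.05, and 3 had an unadjusted p under 0.05, as did 32.9% of all features. With the block EP400 and VPS72 passed (edgeR), as they did in DESeq2, which called 8 of the 49 partners higher (background 6.75%) and 10 lower (background 16.8%), 23.5% of all features being called. SRCAP, the ATPase of the complex that ACTR6 belongs to, gave 359, 326 and 323 CPM in shControl and 382, 398 and 374 CPM in shNXN cells. Its groups did not overlap, with the shNXN libraries higher, and its log2 fold change was 0.19 (SE 0.113, adjusted p = 0.261, edgeR), which turned to -0.14 after GC correction. ZNHIT1, which loads the variant histone together with ACTR6, gave 62.4, 53.9 and 48.95 CPM in shControl and 81.5, 85.7 and 62.4 CPM in shNXN cells. The log2 fold change of ZNHIT1, the highest of this group, was 0.47 (SE 0.179, adjusted p = 0.124, edgeR), and on day 11 its shNXN library barely exceeded the highest shControl library. VPS72, the chaperone subunit that holds the variant histone, had a log2 fold change of 0.45, DMAP1, a scaffold subunit, 0.26 and EP400, the ATPase of the sister complex, 0.44. YEATS4, a reader of acetylated histones, went the other way, with 22.0, 10.5 and 19.8 CPM in shControl and 11.5, 11.4 and 7.22 CPM in shNXN cells. These groups overlapped, and the log2 fold change was -0.79 in counts (adjusted p = 0.153, edgeR) but the log2(FPKM + 1) difference was 0.58 (adjusted p = 0.215, limma), and the estimate after GC correction was 0.16.

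The 3 proteins that SRCAP and INO80 share were divided as well. RUVBL1 and RUVBL2 are paired AAA+ ATPases that form a ring in both complexes. RUVBL1 gave 45.7, 56.7 and 62.8 CPM in shControl and 69.6, 72.3 and 75.5 CPM in shNXN cells, and RUVBL2 gave 132, 133 and 151 CPM against 177, 206 and 174 CPM. Both were higher in every shNXN library, with log2 fold changes of 0.40 and 0.43 (adjusted p = 0.141 and 0.0866, edgeR). ACTL6A, an actin-related protein also found in SWI/SNF, gave 118, 171 and 148 CPM in shControl and 53.8, 49.6 and 131 CPM in shNXN cells. The day 11 shNXN library lay within the shControl range while the other shNXN libraries lay well below it, and the log2 fold change was -0.90 (SE 0.383, adjusted p = 0.152, edgeR). In FPKM the same gene gave 80.0, 114 and 118 in shControl and 154, 141 and 115 in shNXN cells, which is the opposite direction. After GC correction the log2 fold changes in counts were 0.18 for RUVBL1, 0.055 for RUVBL2 and -0.39 for ACTL6A.

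None of the 8 INO80 genes passed edgeR's test at an adjusted p under 0.05 with or without the block. Without it 4 had an unadjusted p under 0.05, as did 32.9% of all features. DESeq2 called INO80B and INO80E higher, against 23.5% of all features called and 6.75% called higher. After GC correction these genes lay at 0.12 and 0.0042, and edgeR called neither. The ATPase INO80 itself had a log2 fold change of -0.02. ACTR5, an actin-related protein needed for nucleosome sliding, was the highest of the group, with 10.4, 13.8 and 17.4 CPM in shControl and 19.4, 20.4 and 22.0 CPM in shNXN cells, which did not overlap. Its log2 fold change was 0.57 (SE 0.231, adjusted p = 0.140, edgeR). INO80D was the lowest, with 38.4, 20.9 and 43.6 CPM in shControl and 22.8, 17.8 and 21.7 CPM in shNXN cells, and its groups overlapped through the day 9 shControl library. Its log2 fold change was -0.72 (SE 0.289, adjusted p = 0.137, edgeR). ACTR8, another actin-related protein of INO80, had a log2 fold change of -0.12, and INO80B, INO80C, INO80E and MCRS1 lay between 0.24 and 0.52.

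In SWI/SNF, 9 of 14 genes had higher and 5 lower levels in shNXN cells with a median log2 fold change of 0.27. Without the block edgeR called none, and 5 had an unadjusted p under 0.05, as did 32.9% of all features. With the block it called 4 (28.6%), against 23.3% of all features. DESeq2 called ARID2 lower and SMARCA4 and SMARCD2 higher, 3 of 14 (21.4%) against 23.5% of all features. The ATPase SMARCA4 (BRG1) gave 604, 554 and 600 CPM in shControl and 693, 772 and 730 CPM in shNXN cells, higher in each shNXN library. The other ATPase, SMARCA2 (BRM), gave 34.4, 42.3 and 23.4 CPM against 42.4, 44.5 and 33.5 CPM, and its groups overlapped. The log2 fold changes were 0.32 for SMARCA4 and 0.27 for SMARCA2 (adjusted p = 0.111 and 0.462, edgeR). SMARCD2, an accessory subunit, had the highest log2 fold change of the 51 genes, 0.61 (SE 0.156), from 124, 129 and 100 CPM in shControl and 178, 203 and 160 CPM in shNXN cells. It passed with the block (adjusted p = 0.0213, edgeR) and not without it (adjusted p = 0.0659). SMARCC2, a core scaffold subunit, likewise passed only with the block (log2 fold change 0.38, adjusted p = 0.0492, edgeR).

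The DNA-binding ARID subunits of SWI/SNF differed in direction before GC correction. After it ARID1A, ARID1B and ARID2 lay at log2 fold changes of -0.03, -0.02 and -0.39, and none was called by edgeR. ARID1A and ARID1B, alternative subunits of the canonical BAF form, gave 173, 165 and 156 CPM and 132, 125 and 116 CPM in shControl cells and 203, 214 and 195 CPM and 156, 151 and 141 CPM in shNXN cells. Neither overlapped between the groups, with log2 fold changes of 0.31 and 0.27 (adjusted p = 0.123 and 0.174, edgeR). ARID2, which defines the PBAF form, gave 39.3, 58.2 and 45.3 CPM in shControl and 21.1, 13.2 and 29.1 CPM in shNXN cells. All shNXN values of ARID2 were lower, and its log2 fold change was -1.17 (SE 0.309, adjusted p = 0.0697 without the block and 0.0490 with it, edgeR). PBRM1 and BRD7, bromodomain subunits of the same PBAF form, had log2 fold changes of -0.55 and -0.18. PBRM1 passed with the block (adjusted p = 0.0379, edgeR). After GC correction PBRM1 lay at 0.32 and BRD7 at 0.34. BRD9, which marks the noncanonical form, had 0.28.

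In the ISWI and BAZ group the median log2 fold change was -1.10, with 5 of 7 genes lower and 6 of 7 at an unadjusted p under 0.05, although edgeR called none without the block (DESeq2 called 6). The same unadjusted threshold was passed by 32.9% of all features, and 23.5% were called in DESeq2. With the block 5 of 7 were called, against 23.3% of all features, BAZ1A, BAZ2B, BPTF and SMARCA5 lower and BAZ2A higher. The lower genes named here had transcript GC contents of 39.0% to 43.8%. Of all features below the median GC content, 35.8% were called with the block. After GC correction the group median was -0.22, and edgeR called none of the group (background 0.0355%). SMARCA5 (SNF2H), an ISWI ATPase, gave 174, 174 and 193 CPM in shControl and 50.5, 52.8 and 108 CPM in shNXN cells, without overlap. Its log2 fold change was -1.36 (SE 0.300, adjusted p = 0.0537 without the block and 0.0186 with it, edgeR). SMARCA1 (SNF2L), the second ISWI ATPase, gave 189, 199 and 151 CPM in shControl and 68.8, 48.3 and 134 CPM in shNXN cells. The day 11 shNXN library came close to the lowest shControl library, and the log2 fold change was -1.10 (SE 0.359, adjusted p = 0.0962 without and 0.0631 with the block, edgeR). The companions of these ATPases covered the whole range. BAZ2B, a bromodomain protein, gave 41.4, 50.5 and 51.2 CPM against 11.9, 10.7 and 28.1 CPM (log2 fold change -1.497), whereas BAZ2A, the subunit that silences ribosomal genes, gave 132, 140 and 162 CPM against 197, 201 and 193 CPM (log2 fold change 0.44). BAZ1A, BPTF and BAZ1B had log2 fold changes of -1.15, -0.53 and 0.06.

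Among the 8 CHD genes, CHD1 and CHD9 had the largest differences. CHD1, which works at actively transcribed genes, gave 70.3, 51.7 and 105 CPM in shControl and 10.2, 7.36 and 43.1 CPM in shNXN cells. The groups did not overlap, but both spread widely, and the log2 fold change was -1.91 (SE 0.669, adjusted p = 0.109 without and 0.0200 with the block, edgeR). CHD9 lay at a log2 fold change of -1.63 (edgeR's adjusted p = 0.0654 without and 0.0174 with the block). The NuRD ATPases CHD3 and CHD4 gave 133, 162 and 105 CPM and 473, 497 and 652 CPM in shControl cells and 172, 168 and 120 CPM and 559, 560 and 730 CPM in shNXN cells. Both overlapped between the groups, and their log2 fold changes were 0.20 and 0.19. CHD7, mutated in CHARGE syndrome, was the highest of the family, with 118, 111 and 146 CPM in shControl and 162, 145 and 173 CPM in shNXN cells, overlapping, and a log2 fold change of 0.35 (SE 0.153, adjusted p = 0.156, edgeR). CHD2, CHD6 and CHD8 lay between -0.05 and 0.07.

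Of the remaining SNF2-type ATPases, HELLS, which supports DNA methylation in repeats, lay at a log2 fold change of -1.08 (edgeR's adjusted p = 0.101 without and 0.0220 with the block). SMARCAL1, which repairs stalled replication forks, gave 35.9, 40.1 and 41.0 CPM in shControl and 48.5, 53.5 and 48.3 CPM in shNXN cells, higher without overlap, with a log2 fold change of 0.36 (SE 0.146, adjusted p = 0.139, edgeR).

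A further 63 subunits and partners of the same complexes, listed from general knowledge, were examined in the same fit. Of these, 59 were tested, 25 with a log2 fold change above and 34 below 0 (median -0.16), and 1 was called, UCHL5, a deubiquitinating enzyme that joins INO80. UCHL5 gave 45.6, 30.6 and 55.9 CPM in shControl and 17.2, 15.3 and 18.6 CPM in shNXN cells, without overlap, and its log2 fold change was -1.37 (SE 0.248, adjusted p = 0.0456, edgeR). After GC correction it was 0.14 (adjusted p = 0.819, edgeR). With the block 13 of the 59 were called (22.0%), 1 higher and 12 lower, against 23.3% of all features (6.28% higher, 17.0% lower). The 14 tested genes listed for SRCAP, EP400 and TIP60 include the variant histones H2AFZ and H2AFV. Of these 14, 3 had higher and 11 lower levels without the block. With it 5, namely EPC1, EPC2, ING3, MBTD1 and MORF4L2, were called lower and none higher. That share was 35.7%, against the 17.0% of all features called lower. After GC correction these 5 genes lay at 0.25, -0.27, 0.55, -0.82 and -0.0028, and edgeR called none of them (background 0.0355%).

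The fold changes of the 51 genes ran along the GC content of their transcripts. Across the 51 genes the Spearman correlation of the log2 fold change with the GC content of the longest annotated transcript was 0.832, and across 12740 tested features with a known GC content it was 0.789. Both are descriptions across genes that share the same 6 libraries. It was 0.790, 0.810 and 0.812 over the 51 genes on days 7, 9 and 11 taken singly. SMARCAD1 had the lowest GC content of the 51 genes (36.0%), ATRX had 36.9%, CHD1 38.1%, SMARCA5 39.0% and ACTR6 40.1%, whereas SRCAP had 57.4%, SMARCA4 61.4% and INO80B, the highest, 62.7%. Of the 25 genes at or above 48.4%, the median of the tested features, 23 had a log2 fold change above 0, with a median of 0.32. Of the 26 genes below it, 21 had a negative log2 fold change, with a median of -0.76. The corresponding medians over all tested features were 0.31 and -0.59.

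With the GC trend taken out of each library, none of the 49 partners was called by edgeR (background 0.0355%), and the median was 0.05. In that fit 9 partners had an unadjusted p under 0.05, as did 2409 of all 14071 features. With the day as a block as well, edgeR called 0 partners (background 0.924%). An unadjusted p under 0.05 was then found in 13 partners and in 3011 of all 14071 features. The estimate changed sign with GC correction in 19 of the 51 genes and in 34.0% of all features, and HELLS, called lower with the block, was then at 0.0680. Among the 24 partners below the median GC content the median went from -0.64 to 0.06. The ISWI and BAZ median became -0.22, SMARCA5 -0.38, CHD1 -0.95 and ATRX -0.80 (adjusted p = 0.106, edgeR). ACTR6 was then at -2.31 and SMARCAD1 at -1.48. Both were listed for their lower counts in this comparison, so their place among the 51 genes is no test. INO80C, SMARCE1 and SMARCA2, of 41.1%, 38.4% and 42.9% GC, lay at 1.08, 1.01 and 0.87 (adjusted p = 0.101, 0.0921 and 0.227, edgeR). The correction removes any difference that follows GC content, whether it arose in the cells or in library preparation, and these cannot be told apart here.

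**Figure D3:**
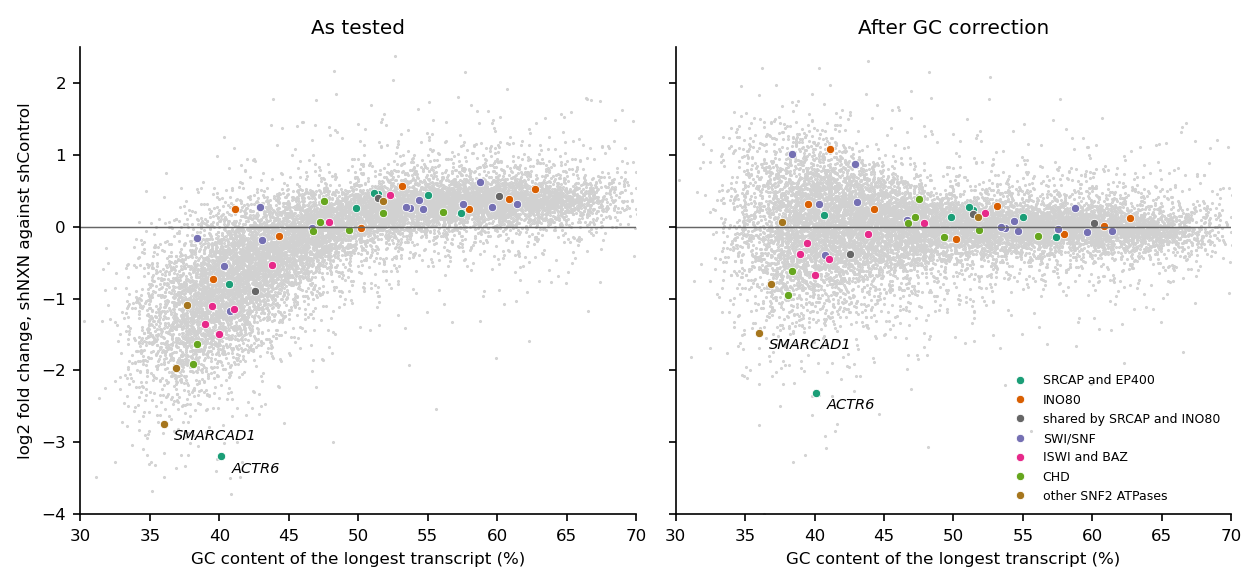
Log2 fold change of shNXN against shControl (y axis) against the GC content of the longest transcript in percent (x axis), for tested features (grey) and the 51 genes (coloured by complex), before (left) and after (right) GC correction. Before correction the 51 genes followed the grey cloud (Spearman correlation 0.832), and afterwards most lay near 0 (correlation 0.178). ACTR6 and SMARCAD1, the lowest points, had been listed because their counts were lower.

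By day, the partners below the median GC content had median log2 differences of -0.73, -0.52 and -0.20 on days 7, 9 and 11, each from 1 library per group, and differences between days were not tested. The ISWI and BAZ group gave -1.45, -1.71 and -0.22, ATRX -2.50, -2.43 and -1.38 and CHD1 -2.77, -2.79 and -1.28, each nearest 0 on day 11. ACTR6 gave -3.69, -3.03 and -2.67 and SMARCAD1 -3.17, -3.16 and -2.20. When both day 11 libraries were left out, edgeR called 21 of the 49 partners, 9 higher and 12 lower, against 31.8% of all features (7.99% higher, 23.8% lower). SMARCC2, called with the block, was not among them (adjusted p = 0.0718, edgeR). Partners called here and not with the block included SMARCA1 and ACTL6A, at log2 fold changes of -1.73 and -1.48, and ACTR5 and ZNHIT1, at 0.71 and 0.52.

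Counts and FPKM disagreed in sign for 9 of the 51 genes, against 11.8% of all tested features. All 9, ACTL6A, ACTR8, CHD8, HELLS, INO80, INO80D, SMARCC1, SMARCE1 and YEATS4, were lower in counts and higher in FPKM in shNXN cells, where the median of all features was 0.13 on the log2(FPKM + 1) scale. HELLS gave 16.9, 10.5 and 21.2 FPKM in shControl and 15.1, 15.5 and 19.5 FPKM in shNXN cells, which overlapped entirely. The implied transcript length in shNXN cells relative to shControl cells was 0.354 in ACTR6, 0.388 in YEATS4, 0.431 in ACTL6A, 0.439 in HELLS and 0.473 in INO80D, and reached 1.15 in BRD7. On the FPKM scale limma called 2 of the 49 partners, ATRX (-1.55, adjusted p = 0.0493) and SMARCA5 (-1.40, adjusted p = 0.0486), both lower, against 2.04% of all features (1.90% lower).

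**Figure D4:**
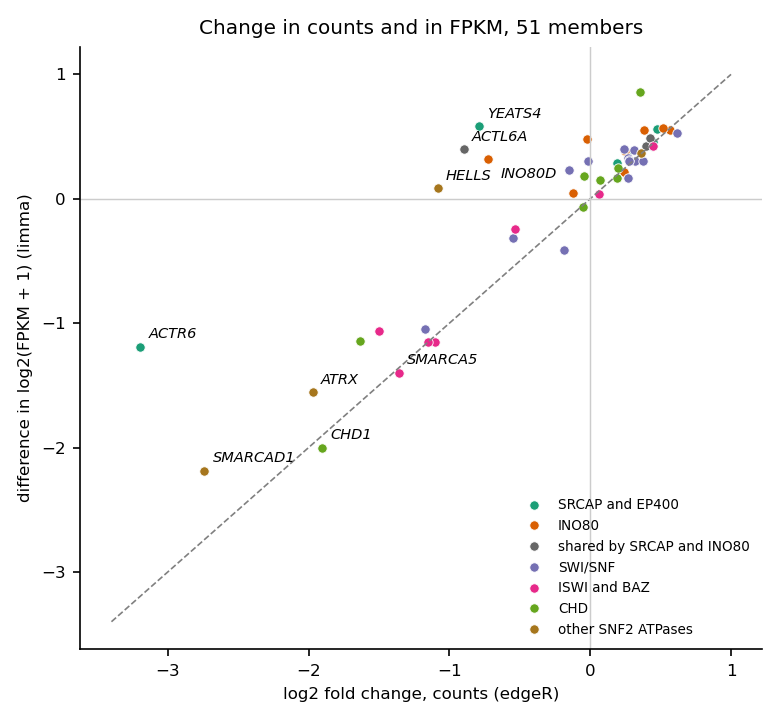
Difference in log2(FPKM + 1) (y axis, limma) against the log2 fold change in counts (x axis, edgeR) for the 51 genes, coloured by complex, with equality as a dashed line. SMARCA5 and CHD1 lay on the line, while ACTR6, YEATS4, ACTL6A, INO80D and HELLS lay well above it.

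Levels between genes were compared in FPKM, which is per transcript length. In shControl cells the mean level ran from 4.26 ± 0.466 FPKM in INO80D to 147 ± 6.88 FPKM in CHD4 (SD, n = 3), with a median of 26.4 FPKM over the 51 genes and 13.6 FPKM over the tested features. The abundant genes were CHD4, SMARCE1 (136 ± 2.32 FPKM), SMARCA4 (130 ± 6.72 FPKM), SMARCB1 (117 ± 5.70 FPKM), RUVBL2 (111 ± 11.0 FPKM) and ACTL6A (104 ± 20.8 FPKM). By shControl CPM per kilobase of the longest transcript they were at 81.0, 19.2, 101, 31.0, 68.9 and 76.6, in the same order. Their ranking therefore depends on the length used. Over the 51 genes the Spearman correlation of these measures was 0.828. ACTR6 was present at 14.1 ± 2.40 FPKM and SRCAP at 45.5 ± 4.15 FPKM, and SMARCAD1 at 20.7 ± 2.21 FPKM.

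Related subunits were present in unequal amounts. The ratio of SMARCA4 to SMARCA2 was 13.8 ± 4.67 in shControl and 13.3 ± 4.84 in shNXN cells by FPKM, and 22.9 ± 7.73 and 22.6 ± 3.52 by CPM per kilobase of the longest transcript, so SMARCA4 was the main SWI/SNF ATPase by RNA in both. ARID1A exceeded ARID1B by a ratio of 1.41 ± 0.116 and 1.64 ± 0.147. SMARCA5 was below SMARCA1, with ratios of 0.557 ± 0.143 and 0.454 ± 0.133. CHD4 exceeded CHD3 (4.71 ± 0.719 and 4.58 ± 1.61), and RUVBL2 exceeded RUVBL1 (3.06 ± 0.367 and 3.18 ± 0.357, or 5.14 ± 0.589 and 5.19 ± 0.543 by CPM per kilobase). In 4 of the 5 pairs the FPKM ratios of the shControl and shNXN libraries overlapped, also in SMARCA5 and SMARCA1, where both genes had lower counts. For ARID1A and ARID1B the FPKM ratios did not overlap, at 1.41, 1.52 and 1.29 in shControl and 1.59, 1.81 and 1.53 in shNXN cells, and with 3 libraries against 3 an exact permutation test cannot give a p below 0.1. By CPM per kilobase the ratios of this pair overlapped, at 1.66, 1.66 and 1.69 in shControl and 1.64, 1.79 and 1.75 in shNXN cells.

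**Figure D5:**
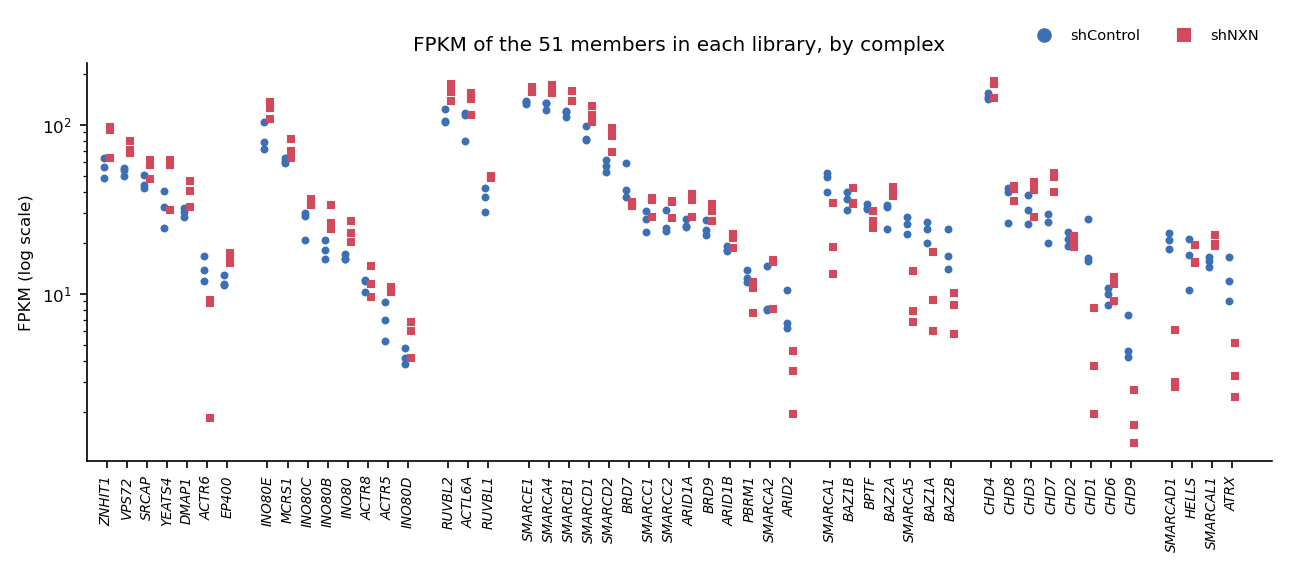
FPKM on a log axis (y axis) of each of the 51 genes (x axis, grouped by complex and ordered by the shControl mean), with 1 point per library, shControl as circles and shNXN as squares. Within each complex the levels spanned a wide range, and the shNXN points of SMARCAD1, ATRX, CHD1, CHD9, ARID2, SMARCA5 and BAZ2B lay below those of shControl.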

How the data were processed

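RNA from 6 Hep-3B libraries, 3 shControl and 3 shNXN, was sequenced from a SMARTER mRNA kit. The authors deposited estimated counts per gene, not scaled between libraries, and an FPKM table of these features. Aligner, counter and annotation are not given in the sources used here. The submitters' processing notes name the mouse builds GRCm38 and mm10, although 20314 of the 23406 features carry human Ensembl identifiers and the other 3092 are assembled loci. Groups and days were taken from the sample titles. Symbols were matched for 19433 identifiers. After rounding, the counts went through edgeR 4.0.16 under R 4.3.3 (TMM, filterByExpr, quasi-likelihood test), without a block because the study states no RNA-seq model. Features with a Benjamini-Hochberg adjusted p under 0.05 over all tested features were called. CPM values use the TMM-scaled library totals.

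Alternatives were the labelled day as a block, a GC correction (a natural spline with 5 degrees of freedom on the GC content of the longest GENCODE 29 transcript, entered as an offset), both together, RLE factors, library size only, DESeq2 1.42.0, other filters, limma 3.58.1 on log2(FPKM + 1) and log2(FPKM + 0.1), and left-out libraries. The replicate number is the labelled day, so it pairs the libraries, and deviations from the group means correlated at 0.304, 0.309 and 0.451 within days 7, 9 and 11 and between -0.368 and 0.148 across days. Replicates differed by more than sampling noise (chi-square per feature 21.3 to 82.8).

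The 51 genes, the further 63 subunits and the markers were chosen with earlier results of these data known. Values in every library were given for ACTR6, SMARCAD1, called partners, the highest and lowest log2 fold change of each complex, 5 pairs of related genes, NXN and called further subunits. Those of SRCAP, YEATS4 and, in FPKM, HELLS were added after their values were seen. On simulated data with 197 of 13901 features changed, edgeR recovered 49.8% of them (81% at a log2 change of 2 and 17.5% at 1), with 8 false calls. These simulated counts were drawn independently for each feature, without the GC trend or the day differences of the real libraries. The recovery and the false calls therefore do not describe calls made under such trends. Scripts used scipy 1.17.1, pandas 2.3.3 and numpy 2.4.6 under Python 3.11.15. The other experiments of the study were not analysed here.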

Additional observations from a re-analysis of the deposited data

How the results depend on the processing

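Over all tested features edgeR called 477 (26 higher, 451 lower), and the count was 826 by RLE factors, 929 by library size only, 818 unfiltered, 3311 in DESeq2 (949 higher, 2362 lower), 3272 with the replicate block, 5 with GC correction, 130 with both (76 higher, 54 lower), 287 by limma on log2(FPKM + 1) and 66 on log2(FPKM + 0.1), 4519 without both day 11 libraries and 2705 at an adjusted p under 0.1. The counts of called partners, 1 at first, were in the same order 2, 2, 2, 18, 15, 0, 0, 2, 0, 21 and 13. Those of the further subunits, 1 at first, were 2, 2, 2, 17, 13, 0, 0, 1, 0, 23 and 12, and 2 with at least 10 counts in every library. Leaving out 1 library gave 0 to 3706 features, 0 to 14 partners and 0 to 17 further subunits, the highest of each without the day 11 shNXN library. Where edgeR called 0 with 1 library left out, 2668 to 4229 features, 10 to 22 partners and 9 to 23 further subunits had an unadjusted p under 0.05, as did 24 partners by limma on log2(FPKM + 0.1). Apart from the calls given in the report, the block changed no call among the partners. The partner median was 0.22 with RLE factors and in DESeq2, 0.24 without the filter, 0.0541 with GC correction, 0.0572 with block and GC correction, 0.30 and 0.31 by limma with a pseudocount of 1 and of 0.1, and 0.16 to 0.24 when 1 library was left out. NXN stayed between -1.90 and -1.67 when 1 library was left out, with edgeR's adjusted p above 0.05 in 4 of the 6 fits (up to 0.225). The SMARCA4 to SMARCA2, ARID1A to ARID1B and RUVBL2 to RUVBL1 ratios were 22.9, 1.67 and 5.14 by CPM per kilobase of the longest transcript in place of FPKM.

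Directions turned with GC correction alone in 19 of the 51 genes and with the block as well in 18. Among the 24 genes chosen by the naming rule they turned in both in INO80D (0.32 and 0.33), SMARCA4 (-0.0564 and -0.0540), ARID1A (-0.0271 and -0.0274), ARID1B (-0.0217 and -0.0212), CHD3 (-0.13 and -0.12) and CHD4 (-0.0429 and -0.0371). On the FPKM scales with pseudocounts of 1 and 0.1 they turned, among these 24, in INO80D (0.32 and 0.38) and ACTL6A (0.40 and 0.40), which are 2 of the 9 genes given in the report. The cause was not tested. ATRX was no longer called with GC correction (-0.80), with block and GC correction (-0.82) and on log2(FPKM + 0.1) (-1.79). For these 24 genes, which do not include SRCAP and YEATS4, 208 of 264 alternative values kept direction and call. On simulated data with 3 libraries a group and no GC trend, edgeR recovered 17.5% of changes of 1 on the log2 scale.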
